A study of Mus musculus with 18 samples.

Results

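The transcripts described here come from 6 mouse genes of the 2-cell-like state, Zscan4c, Tcstv1, Tcstv3, Usp17la, Zfp352 and Pramel37. They were chosen by name, as genes of that state that peaked on the arrays at day 12 of the Dazl-GFP culture and were lower by day 16, so the day 12 and day 16 values below describe the choice and are given with no test. The 6 genes have 11 probes of the 41174 on the array, and all 6 are among the 18876 genes with a probe well above background on both arrays of at least 1 group. Zfp352 and Pramel37 met that condition only through the day 12 and day 16 arrays.

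RNA from 18 samples in 9 groups of 2 was hybridised to 1-colour Agilent arrays of mouse genes, to compare embryonic stem (ES) cells with germ cells made from them in culture and with germ cells from the animal. Every sample is labelled male and of mixed C57BL/6 and 129SV background. Of the cells in culture, 2 groups were Stella-GFP ES cells sorted into GFP-positive and GFP-negative fractions, where a bacterial artificial chromosome reports Stella, the protein of Dppa3. A further 2 groups were Dazl-GFP ES cells sorted the same way, this reporter being driven by Dazl, whose product binds RNA in germ cells. ES cells grew with LIF on feeder fibroblasts, which were depleted before differentiation on gelatin. GFP-positive cells, named in vitro primordial germ cells by the submitters, were sorted from the Stella-GFP line at day 7 and from the Dazl-GFP line at day 12 and day 16. The last pair of groups were Dazl-GFP-positive cells sorted from embryonic gonads at E13.5 and from the testis at an age of 7 to 11 days, here juvenile testis. Nothing in the labels says whether the 2 samples of a group came from separate cultures or animals, or how many animals were pooled, so p-values measure only the spread between these samples.

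The mouse embryo first switches its own genome on at the stage of 2 cells, and the 6 genes are part of that burst of transcription. Under ordinary ES cell culture a small fraction of cells passes through a transient state in which these genes, the Zscan4 cluster and MERVL retroviral repeats are transcribed again. The transcription factor Dux drives entry into the state, with Dppa2 and Dppa4 upstream of it, and repressive chromatin complexes keep it rare. In a bulk sample, fewer cells in the state and less RNA per cell cannot be told apart.

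A level here is the log2 signal of a probe minus the log2 of the 75th percentile of its array, so 0 marks a probe brighter than 75% of the spots. That percentile lay between 103 and 474 signal units, and 50.6% to 68.9% of spots were well above background by the scanner software's own flag. Replicate arrays correlated at 0.943 to 0.994 across genes, lowest for the E13.5 pair. The library labelled E13.5 replicate 1 lacked a signal well above background for the Y-linked genes Ddx3y and Eif2s3y, which the other 17 arrays had, so results on E13.5 members and activators are also given without it. Dazl itself was at 0.79 and 0.73 in Dazl-GFP-positive ES cells, 4.93 and 4.81 at day 12, and 4.85 and 4.78 at day 16. On both day 12 arrays, 14 of 14 pluripotency genes and 13 of 14 gonadal germ cell genes had a signal well above background.

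RefSeq promoters on build GRCm38.p6 were at hand for 4 of the 6 genes, Zscan4c and Usp17la on chromosome 7, Zfp352 on chromosome 4 and Pramel37 on chromosome 5. Tcstv1 and Tcstv3 both lie on chromosome 13. The 120 bases before each start are printed 5′ to 3′ on the gene's strand with capitals for the TATA box letters TATAAA, and they are shown because the genes were chosen for a shared time course. Zscan4c is on the plus strand at chr7:11005625-11005744, Usp17la on the plus strand at chr7:104856896-104857015, Zfp352 on the plus strand at chr4:90218700-90218819 and Pramel37 on the minus strand at chr5:94070546-94070665.
Zscan4c: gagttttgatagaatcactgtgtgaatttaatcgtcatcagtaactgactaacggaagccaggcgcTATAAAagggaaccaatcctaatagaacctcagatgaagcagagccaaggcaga
Usp17la: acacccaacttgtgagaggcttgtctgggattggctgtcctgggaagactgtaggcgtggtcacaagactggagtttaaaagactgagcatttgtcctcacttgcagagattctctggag
Zfp352: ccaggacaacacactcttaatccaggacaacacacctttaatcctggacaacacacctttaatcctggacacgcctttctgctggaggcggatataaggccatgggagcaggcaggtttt
Pramel37: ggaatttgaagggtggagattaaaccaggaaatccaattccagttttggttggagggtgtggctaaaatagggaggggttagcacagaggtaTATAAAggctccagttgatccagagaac

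TATAAA on the gene's strand occurs in the 300-base promoters of Zscan4c, with its first base 54 bases before the start, and of Pramel37, 28 bases before the start. It occurs in 8.32% of the 32841 promoters of the RefSeq table. A Dux-like inverted homeobox motif was also searched and occurs in 11 of the 32841 promoters and in 0 of the 4 members', which says only that its letters are not in this window. The ratio of observed to expected CpG was 0.242 for Zscan4c, 0.0756 for Usp17la, 0.142 for Zfp352 and 0.0811 for Pramel37, against a median of 0.384 over all promoters, of which 58.1% lie under 0.5, and GC content was 47%, 42%, 47% and 43% against a median of 52.7%.

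Zscan4c encodes a SCAN-domain zinc finger protein of the 2-cell embryo that is known in mouse ES cells for telomere lengthening. Its brighter probe, listed under the older name Gm397, read -3.01 and -2.45 in Dazl-GFP-positive ES cells, 2.79 and 2.89 at day 12 and -0.79 and -0.66 at day 16. At day 12 the spot stood at the 92.2 and 92.7 percentile of its arrays, with signals of 1110 and 1170, and in the Dazl-positive ES cells the signals were 13.9 and 18.9. The 3 time points did not overlap, which the choice by time course favours, and the share over all genes was not counted. The gene also had a clear signal before differentiation, since Stella-GFP-positive ES cells read -3.75 and -2.74 and Stella-GFP-negative ES cells -1.57 and -0.61, with all 4 arrays well above background. Dazl-GFP-negative ES cells read -4.88 and -4.00, the first not well above background, and day 7 cells, not well above background on either array, -4.73 and -4.46. E13.5 cells read -4.95 and -5.36 and juvenile testis cells -6.03 and -4.92, with 1 array of each pair well above background. A second Zscan4c probe had the same order of the 3 time points, with 0.94 and 0.83 at day 12 and -2.81 and -2.71 at day 16, and no array well above background in Dazl-positive ES cells.

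Tcstv1 and Tcstv3 are short genes of near-identical sequence that are transcribed at the 2-cell stage and are tied to telomere length in mouse ES cells. The probe that stands for Tcstv1 read -5.13 and -3.69 in Dazl-GFP-positive ES cells, the first not well above background, 2.48 and 2.52 at day 12, and -1.63 and -1.45 at day 16. Tcstv3 read -3.21 and -2.87 in Dazl-GFP-positive ES cells, 2.57 and 2.55 at day 12, and -1.51 and -1.32 at day 16. Neither gene overlapped between the 3 time points, which the choice by time course again favours. Both arrays showed Tcstv3 well above background in 8 of the 9 groups and Tcstv1 in 4, so a low Tcstv3 signal was present almost throughout. In the Stella line Tcstv3 read -3.46 and -4.36 in GFP-positive ES cells, the second not well above background, and -2.67 and -3.30 in GFP-negative ES cells. Tcstv1 read -4.39 and -4.91 in Stella-GFP-positive ES cells, not well above background, and -2.99 and -3.49 in Stella-GFP-negative ES cells. Dazl-GFP-negative ES cells read -3.41 and -3.77 for Tcstv1 and -2.72 and -2.77 for Tcstv3. At day 7 and in the animal Tcstv3 stayed between -4.00 and -3.50, while this Tcstv1 probe was well above background on 1 of those 6 arrays, juvenile testis replicate 1, and a second Tcstv1 probe on juvenile testis replicate 2.

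The probes of this pair cannot be assigned to 1 copy with certainty. Those of the Zscan4, Usp17-like and PRAME-like genes named here may also bind near-identical copies. No probe sequences were used to separate any of them. All 5 probes of the pair had their highest reading at day 12. A second Tcstv1 probe read 2.89 and 2.68 at day 12 and -1.18 and -1.32 at day 16. The third Tcstv1 probe read -1.22 on both day 12 arrays and was not well above background in any other group. The second Tcstv3 probe read -0.85 and -1.05 at day 12 and, at day 16, was not well above background.

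Usp17la, listed under the older name Dub1, encodes a deubiquitinating enzyme first described as induced by cytokines in mouse lymphoid cells. Its single probe read -3.57 and -3.54 in Dazl-GFP-positive ES cells, the first not well above background, 2.47 and 2.48 at day 12, and -0.44 and -0.52 at day 16. Stella-GFP-positive ES cells read -4.08 and -3.93, the second not well above background, and Stella-GFP-negative ES cells -2.73 and -2.69. Dazl-GFP-negative ES cells read -4.42 and -4.35 and day 7 cells -5.31 and -4.21, none of them well above background. E13.5 cells read -4.18 and -3.64, both well above background, and juvenile testis cells -5.40 and -4.44, of which the second was. Its signals were 115 and 114 at day 16 against 886 and 883 at day 12.

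Zfp352, a zinc finger gene of the 2-cell stage, and Pramel37, a leucine-rich repeat gene of the PRAME-like family listed under the older name BC061212, were well above background at day 12 and day 16 of the Dazl-GFP culture and in no other group. Zfp352 read -5.91 and -4.63 in Dazl-GFP-positive ES cells, not well above background, -0.48 and -0.50 at day 12, and -3.92 and -3.64 at day 16. Pramel37 read -5.90 and -6.18 in Dazl-GFP-positive ES cells, not well above background, 1.23 and 1.13 at day 12, and -2.75 and -2.56 at day 16. The day 12 signals were 115 and 112 for Zfp352 and 375 and 345 for Pramel37, and both genes stayed measurable at day 16, at signals of 10.3 and 13.2 for Zfp352 and 23.2 and 27.9 for Pramel37. On the 14 arrays of the other 7 groups neither gene reached that mark on any array. A second Zfp352 probe read -2.59 and -2.78 at day 12 and was not well above background at day 16.

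**Figure D1:**
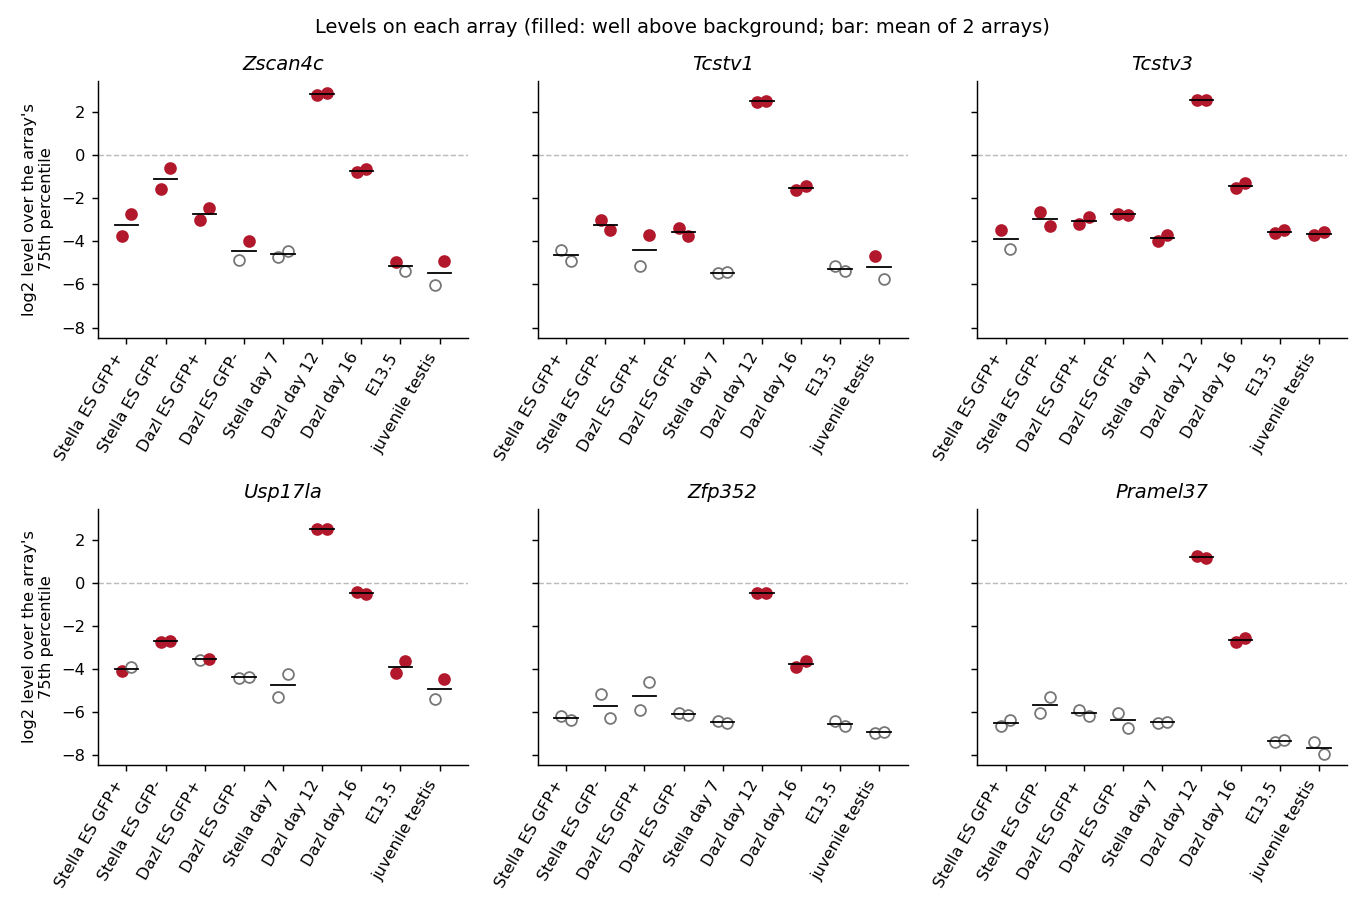
Levels of the 6 genes on each of the 18 arrays, as log2 signal over the array's 75th percentile, by group; filled points were well above background and bars are the mean of 2 arrays. In each panel the 2 day 12 arrays lie above every other array and the 2 day 16 arrays come next by mean level, from -0.48 for Usp17la to -3.78 for Zfp352.

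At day 12 the levels exceeded those of Dazl-GFP-positive ES cells by 5.57 for Zscan4c, 6.91 for Tcstv1, 5.60 for Tcstv3 and 6.03 for Usp17la on the log2 scale. Zfp352 was at least 11.4-fold and Pramel37 at least 36.1-fold higher, as lower bounds set by the dimmest signal that counts as well above background on the ES arrays, for the probe that stands for each gene. With normexp the day 12 differences were smaller, at 0.68 for Zfp352, 1.92 for Pramel37 and 2.76 to 3.41 for the other members, beside -0.31 over all genes. The median over the 6 genes was 5.81, beside -0.11 over all 18876 genes, and 13.1% of all genes were called higher at day 12. Among all genes, 39 rose at least as much as Zscan4c, 15 as much as Tcstv1, 38 as much as Tcstv3 and 27 as much as Usp17la. The choice of the genes fixed these directions, so nothing is read from the shares. The authors' deposited table of group means has 2 rows for Zscan4c, 3 for Tcstv1 and 2 for Tcstv3. The row with the highest day 12 value was taken for each gene, a choice that favours day 12. In these rows the day 12 over ES log2 value was 5.51 for Zscan4c, 7.28 for Tcstv1, 5.68 for Tcstv3 and 5.89 for Usp17la. Day 12 was also the highest of the 9 groups in them for all 6 genes.

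The day 16 minus day 12 differences were -3.56 for Zscan4c, -4.04 for Tcstv1, -3.97 for Tcstv3, -2.96 for Usp17la, -3.29 for Zfp352 and -3.83 for Pramel37. The median was -3.70, beside -0.05 over all genes, and 0.392% of all genes were called lower. Day 12 and day 16 arrays shared 2 slides, and the differences within them ran from -4.10 to -2.91 on the first of them and from -3.98 to -3.01 on the other. Dazl had a mean level of 4.82 at day 16 and 4.87 at day 12. Day 16 had the second highest mean of the 9 groups for each of the 6 genes, but for Zscan4c its arrays lay within the range of the Stella-GFP-negative ES cells, which the authors' deposited table places second. The third highest group was Stella-GFP-negative ES cells for Zscan4c, Tcstv1 and Usp17la and Dazl-GFP-negative ES cells for Tcstv3, and for Zfp352 and Pramel37 no group after day 16 was well above background.

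**Figure D2:**
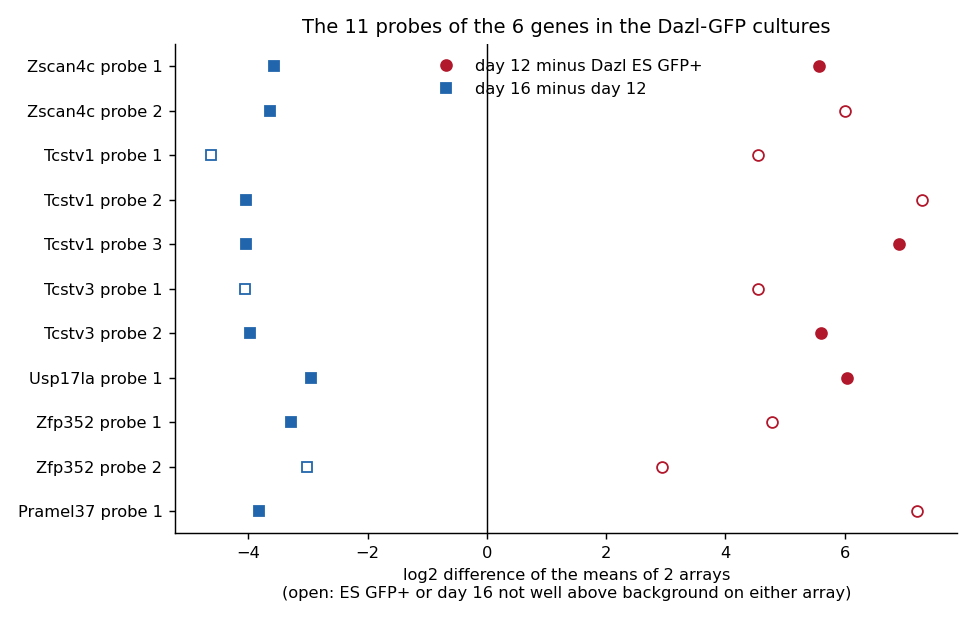
Log2 differences of group means for the 11 probes of the 6 genes, day 12 minus Dazl-GFP-positive ES cells (circles) and day 16 minus day 12 (squares). Open symbols mark a dim group, whose readings were used as they are, so the true difference may be smaller or larger. The circles lie at 2.94 or higher and the squares at -2.96 or lower.

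The ES cell sorts ask whether the cells that carry a germ cell reporter differ before differentiation, and by the choice of the genes all ES fractions lie below day 12. In the Stella line, all 4 genes with a measurable signal averaged less in the GFP-positive than in the GFP-negative ES cells. Zscan4c averaged -3.25 in the GFP-positive and -1.09 in the GFP-negative cells, a difference of -2.15 ± 0.47 (SE), which is about 0.225 of the GFP-negative signal (limma, adjusted p = 0.100). Usp17la differed by -1.30 ± 0.35 (limma, adjusted p = 0.229) and Tcstv3 by -0.92 ± 0.29 (limma, adjusted p = 0.351). Tcstv1, not well above background in the GFP-positive cells, was at least 2.30-fold lower there (limma, adjusted p = 0.351). A second Tcstv1 probe had the same order, at -4.82 and -4.27 in the GFP-positive cells, not well above background, and -2.55 and -2.75 in the GFP-negative cells. None of the 6 genes passed an adjusted p of 0.05 in limma, where 0.44% of all genes did. An unadjusted p under 0.05 was found for 5 of the 6 and for 1232 of all 18876 genes. Among the 5 was Pramel37, which was not well above background in either fraction, so nothing is read from its p-value.

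Each of 2 slides held 1 Stella array of each fraction. Zscan4c, well above background on all 4 arrays, differed by -2.18 and -2.13 within the 2 slides. For Tcstv1, Usp17la and Tcstv3 the GFP-positive spot was the lower on both slides, but it was not well above background on at least 1 of them. With low signals floored, Zscan4c and Tcstv1 passed the test in the Stella sort (limma, adjusted p = 0.0241 and 0.00843). With slide as a block the adjusted p for Zscan4c was 0.0719 in limma. The direction depended on the background correction for 3 of the genes, since with normexp the differences were 0.13 for Tcstv1, 0.22 for Tcstv3 and 0.21 for Usp17la, beside a shift of 0.16 in the median of all genes, while Zscan4c was at -0.36. Among 9 endoderm markers the summed signal, in units of the 75th percentile, was 0.507 to 0.546 in the GFP-positive and 1.45 to 6.61 in the GFP-negative cells, with Afp, Apoa1 and Ttr not well above background in either. The part of those cells in the result was not tested.

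In the Dazl line Zscan4c and Usp17la averaged more in the GFP-positive than in the GFP-negative ES cells. Zscan4c averaged -2.73 in the GFP-positive and -4.44 in the GFP-negative ES cells, a difference of 1.71 ± 0.47, or 3.27-fold (limma, adjusted p = 0.0847). Usp17la, not well above background in the GFP-negative cells, was at least 1.60-fold higher in the GFP-positive cells (limma, adjusted p = 0.319). Tcstv1 differed by -0.82 (limma, adjusted p = 0.481) and Tcstv3 by -0.30 (limma, adjusted p = 0.818). The second Tcstv3 probe lay further apart, at -3.51 and -4.05 in the GFP-negative cells, both well above background. In the GFP-positive cells it read -5.70 and -5.31, not well above background. None of the 6 genes passed the adjusted test, as 2.87% of all genes did. An unadjusted p under 0.05 in limma was found for 2 of them, Zscan4c and Usp17la, and for 2551 of all 18876 genes. The Dazl-GFP-positive ES arrays are also those against which the day 12 peak was seen, so the values are not independent of that choice.

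Within slides the Dazl sort gave 1.55 for Zscan4c where both spots were well above background, and the GFP-positive spot was also the higher on the other slide, where the GFP-negative spot was dim. Tcstv3 gave -0.49 and -0.10. Tcstv1 gave 0.08 on the slide where both spots were well above background, and the GFP-positive spot was dim on the other. Usp17la was well above background on 1 of the 4 Dazl arrays, so no value within slides is given. With slide as a block the adjusted p for Zscan4c was 0.0652 in limma. Tcstv1 and Tcstv3 changed direction with normexp, at 0.39 and 0.32 beside a shift of 0.19 over all genes, and Tcstv1 also with low signals floored, at 0.27. Fibroblast markers moved with this sort. Of 15, 14 were well above background on both GFP-positive arrays and 13 on both GFP-negative arrays, and their summed signal was 43.5 to 46.8 in the GFP-positive and 10.4 to 10.8 in the GFP-negative cells, with Pdgfra not well above background in the GFP-positive cells. At day 12 the sum was 3.47 to 3.58, with Dcn, Lum, Prrx1 and Twist2 not well above background. The 9 endoderm markers moved with the Dazl sort as well, with a summed signal of 2.748 to 2.997 in the GFP-positive and 33.8 to 36.5 in the GFP-negative cells, and Afp, Apoa1, Sox7 and Ttr were not well above background in either. The part of fibroblasts or endoderm in these differences was not tested.

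The contrast of the sorts, Stella minus Dazl, was -3.86 ± 0.66 for Zscan4c and -2.13 ± 0.50 for Usp17la. The unadjusted p for Zscan4c was 9.58e-05, and over all genes the adjusted p was 0.0957 for Zscan4c and 0.283 for Usp17la in limma. No member passed, and 0.0318% of all genes, 6 in number, were called. An unadjusted p under 0.05 in limma was found for 4 of the 6 members and for 887 of all 18876 genes. Among those members were Zfp352 and Pramel37, which were not well above background in any ES fraction, so nothing is read from their p-values. Without the library labelled E13.5 replicate 1 in the fit, which takes part only through the estimate of the spread, the adjusted p for Zscan4c was 0.0460 in limma. With low signals floored it was 0.0220 for Zscan4c and 0.0493 for Tcstv1, and with normexp the contrast was -0.95 for Zscan4c and -0.30 for Usp17la, which was then higher in the GFP-positive cells of both lines, at 0.21 in the Stella and 0.51 in the Dazl line. For Tcstv1 and Tcstv3 the contrast was -0.58 and -0.63, with an adjusted p of 0.9999 for both in limma. With the second Tcstv3 probe it was 0.45, where 3 of the 8 arrays were well above background.

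**Figure D3:**
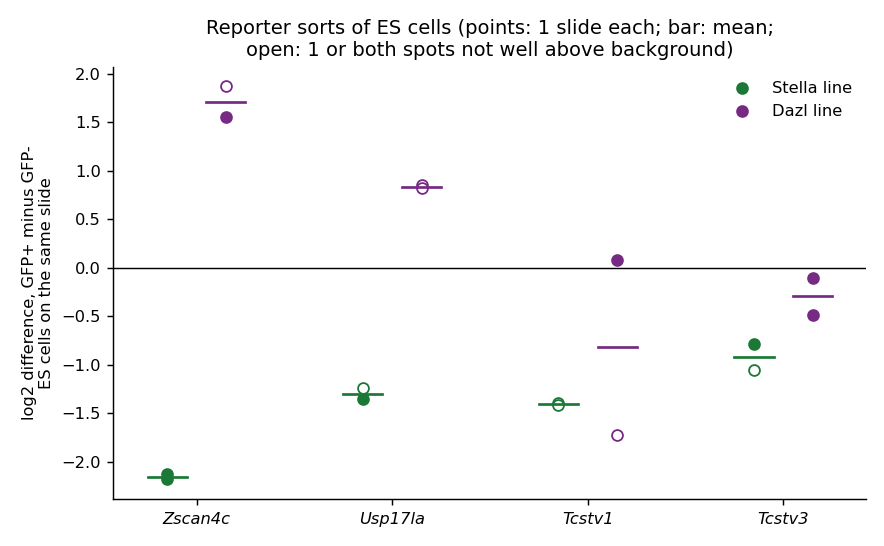
Log2 difference of GFP-positive minus GFP-negative ES cells on the same slide for the 4 genes with a measurable signal, Stella line (left of each pair) and Dazl line; points are slides, bars their mean, and open points have 1 or both spots not well above background. Zscan4c lies at -2.18 and -2.13 in the Stella line and at 1.55 in the Dazl line where both spots were bright.

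Day 7 cells of the Stella line had less Zscan4c signal than Stella-GFP-positive ES cells, by at least 2.39-fold, with an adjusted p of 0.0620 in limma, or 0.0306 with low signals floored. Tcstv3 averaged -3.85 in day 7 cells and -3.91 in Stella-GFP-positive ES cells, a difference of 0.06 ± 0.29 (limma, adjusted p = 0.922). With normexp this difference was -0.65, beside -0.41 over all genes. Usp17la was at least 1.29-fold lower at day 7 (limma, adjusted p = 0.156), and Tcstv1, Zfp352 and Pramel37 were not well above background in either group. None of the 6 genes passed in limma, against 20.6% of all genes, and 1 had an unadjusted p under 0.05, as did 6505 of all 18876 genes. The day 7 arrays filled slides of their own and were extracted with another protocol of the scanner software, so slide and time cannot be told apart here.

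Germ cells from the E13.5 gonad carried less Zscan4c signal than Dazl-GFP-positive ES cells, at -5.15 against -2.73 on average, and the difference of -2.42 ± 0.47 passed the test (limma, adjusted p = 0.00141). It was -2.63 without the library labelled E13.5 replicate 1 (limma, adjusted p = 0.00482). In all, 3 of the 6 genes were called lower, against 44.8% of all genes called in either direction and 21.4% called lower, but the others, Zfp352 and Pramel37, were not well above background in either group, so no direction is given for them. Tcstv1 was at least 1.79-fold lower in the E13.5 cells (limma, adjusted p = 0.131). Tcstv3 differed by -0.53 (limma, adjusted p = 0.159) and Usp17la by -0.36 (limma, adjusted p = 0.446). Without the library labelled E13.5 replicate 1 the differences were -0.46 for Tcstv3 and -0.09 for Usp17la, and the adjusted p for Tcstv1 was 0.180 in limma. The summed signal of the fibroblast markers was 1.80 to 2.12 in E13.5 cells and 43.5 to 46.8 in Dazl-GFP-positive ES cells. The part of fibroblasts in these differences was not tested. The ES arrays of this comparison are again those behind the day 12 peak, and the arrays of animal tissue were all on 1 slide without cultured cells, so slide and group cannot be told apart.

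Between juvenile testis cells and E13.5 cells only Usp17la was called, and not under every alternative. Usp17la averaged -4.92 in juvenile testis cells, with replicate 1 not well above background, and -3.91 in E13.5 cells. The difference was -1.01 ± 0.35 (limma, adjusted p = 0.0447), where 34.8% of all genes were called in either direction and 18.9% lower. With normexp it was -0.57 (limma, adjusted p = 0.190), and without a filter on dim probes no member was called. The call was kept without the library labelled E13.5 replicate 1, at -1.28 (limma, adjusted p = 0.0335). It was lost without E13.5 replicate 2, at -0.74 (limma, adjusted p = 0.210), and without juvenile testis replicate 1, at -0.53 (limma, adjusted p = 0.320). No other member passed, with Zscan4c at -0.32, Tcstv3 at -0.08 and Tcstv1 at 0.06. The other members, Zfp352 and Pramel37, were not well above background in either group.

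Other genes known from the 2-cell-like state were looked up to see how far the pattern went beyond the 6. Of 59 listed names, 1 of them an older name of Pramel37, 16 were on the array and 10 passed the filter, of which Pramel6, Pramel7 and Usp17lb passed only through the day 12 and day 16 arrays. For those 3 the filter favours a day 12 call, so no test against the ES cells is given. Of the other 7, 4 were called higher at day 12 than in Dazl-GFP-positive ES cells and 0 lower, where 13.1% of all genes were called higher, and their median was 0.88. Arg2, a mitochondrial arginase, read -6.26 and -6.12 in Dazl-GFP-positive ES cells, not well above background, -1.76 and -1.80 at day 12 and -5.04 and -5.82, again not well above background, at day 16. Its rise was at least 4.65-fold (limma, adjusted p = 3.78e-05). Its fall by day 16 was at least 8.89-fold (limma, adjusted p = 0.00151).

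Sp110, a nuclear body protein, read -5.57 and -4.93 in Dazl-GFP-positive ES cells, not well above background, -0.39 and -0.47 at day 12 and -1.79 and -1.95 at day 16. It was at least 11.8-fold higher at day 12 than in the ES cells (limma, adjusted p = 3.86e-05), and its day 16 minus day 12 difference of -1.44 did not pass (limma, adjusted p = 0.318). Pramel7, a PRAME-like gene known for holding mouse ES cells in a naive state, followed another course, at -2.94 and -2.63 at day 12 and -1.05 and -0.90 at day 16. It was not well above background in the Dazl-GFP-positive ES cells. Its relative Pramel6 read -4.26 and -4.04 at day 12 and -3.16 and -3.00 at day 16. Both had higher means at day 16 than at day 12, by 1.81 for Pramel7 and 1.07 for Pramel6, neither of which passed (limma, adjusted p = 0.107 and 0.239).

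From day 12 to day 16, 2 of these 7 genes were called lower and 0 higher, Arg2 and AF067063, where 0.392% of all genes were called lower. AF067063 was at -1.44 on average at day 16 and -0.09 at day 12 (limma, adjusted p = 0.0167). Usp17lb, a close relative of Usp17la and picked here after its values were seen, read -1.62 and -1.59 at day 12 and -4.15 and -3.98 at day 16. Gm5662, also picked after its values were seen, has 2 probes. The one that stands for the gene differed by 0.70 between day 12 and the ES cells. The other averaged 2.31 at day 12 and was not well above background in the ES cells. Not every listed gene had this course. Cphx1 differed by -0.71 between day 12 and the ES cells, and Tdpoz1 was not well above background in either. Pramel13 averaged 2.55 in the ES cells, 4.42 at day 12 and 3.93 at day 16. In the Stella sort, the Dazl sort and their contrast 0 of the 7 were called in limma, with 1 in each at an unadjusted p under 0.05.

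**Figure D4:**
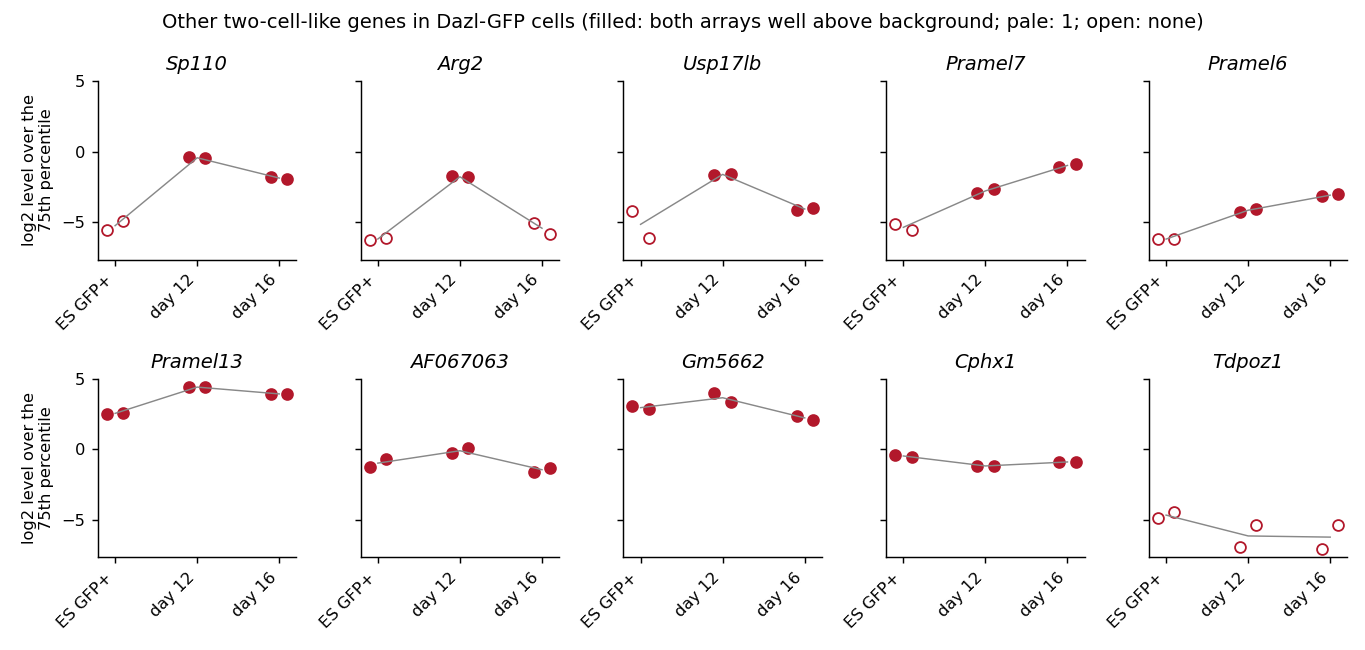
Levels of the 10 other 2-cell-like genes on each array of Dazl-GFP-positive ES cells, day 12 and day 16, as log2 signal over the 75th percentile, ordered by the day 12 difference; lines join group means. Arg2 and Usp17lb peak at day 12, while Pramel6 and Pramel7 are highest at day 16.

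Genes known to switch the state on changed in both directions at day 12. Of 9 listed activators, 7 were tested and all 7 were well above background in every group, and Duxf3 and Obox4 were not on the array under those names. At day 12, 1 was called higher and 2 lower than in Dazl-GFP-positive ES cells, where 27.3% of all genes were called in either direction. Tbx3, a T-box factor that raises the share of 2-cell-like cells in mouse ES culture, read 2.02 and 2.03 in Dazl-GFP-positive ES cells, 3.54 and 3.56 at day 12, and 3.75 and 3.74 at day 16. The day 12 difference was 1.52 ± 0.16 (limma, adjusted p = 6.60e-05). Trp53, the p53 gene, differed by -1.46 ± 0.45 (limma, adjusted p = 0.0329) and Klf5 by -0.99 ± 0.28 (limma, adjusted p = 0.0209). Dppa2 and Dppa4, which switch Dux on, were at -0.43 and -0.45 and did not pass (limma, adjusted p = 0.170 and 0.460). From day 12 to day 16 none of the 7 was called in limma, with 1 at an unadjusted p under 0.05. Of all 18876 genes only 189 were called, and 1462 had an unadjusted p under 0.05 in limma.

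The Dazl sort had 2 activators called higher and none lower, where 1.48% of all genes were called higher. Dppa2 was at 2.50 in the GFP-positive and 1.47 in the GFP-negative cells, a difference of 1.03 ± 0.22 (limma, adjusted p = 0.0330). Tbx3 was 0.75 higher (limma, adjusted p = 0.0345). In the Stella sort no activator was called, with Tbx3 at -0.55 (limma, adjusted p = 0.286). The contrast of the sorts was -1.30 for Tbx3 and did not pass (limma, adjusted p = 0.0957). In E13.5 cells Tbx3 was at -4.28, against 2.02 in Dazl-GFP-positive ES cells (limma, adjusted p = 1.07e-09), and 4 of the 7 activators were called lower and 1 higher, where 44.8% of all genes were called and 21.4% called lower. Without the library labelled E13.5 replicate 1 Tbx3 differed by -6.25, and the counts were again 4 and 1. Juvenile testis cells had 5 of 7 called lower than E13.5 cells, among them Dppa2 by -3.51 and Dppa4 by -3.22 (limma, adjusted p = 1.06e-06 and 0.000172), and 1 higher, where 34.8% of all genes were called and 18.9% called lower. Without that library Dppa2 was at -3.77 and Dppa4 at -3.81, and 5 were called lower and 2 higher.

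All 30 listed repressors of the state were tested, and 7 were called lower and 2 higher at day 12 than in Dazl-GFP-positive ES cells, with a median of -0.43 beside -0.11 over all genes. That is 9 of 30 called, against 27.3% of all genes. L3mbtl2, a subunit of a variant Polycomb complex, was at 0.93 at day 12 and 2.28 in the ES cells, a difference of -1.35 ± 0.21 (limma, adjusted p = 0.000811). Sumo2, Trim28 and Hdac1 differed by -0.65, -1.07 and -0.83 (limma, adjusted p = 0.0160, 0.0231 and 0.0238). Smchd1, a chromatin protein that represses the Dux cluster, moved the other way, at 4.93 at day 12 and 3.67 in the ES cells, with a difference of 1.26 ± 0.17 (limma, adjusted p = 0.000391). Rcor1, a partner of Kdm1a, was 1.27 higher (limma, adjusted p = 0.0236). Between day 16 and day 12 none of the 30 was called in limma, with 1 at an unadjusted p under 0.05. Their median difference was 0.01, beside -0.05 over all genes. Only 189 of all 18876 genes were called there, and 1462 had an unadjusted p under 0.05 in limma.

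**Figure D5:**
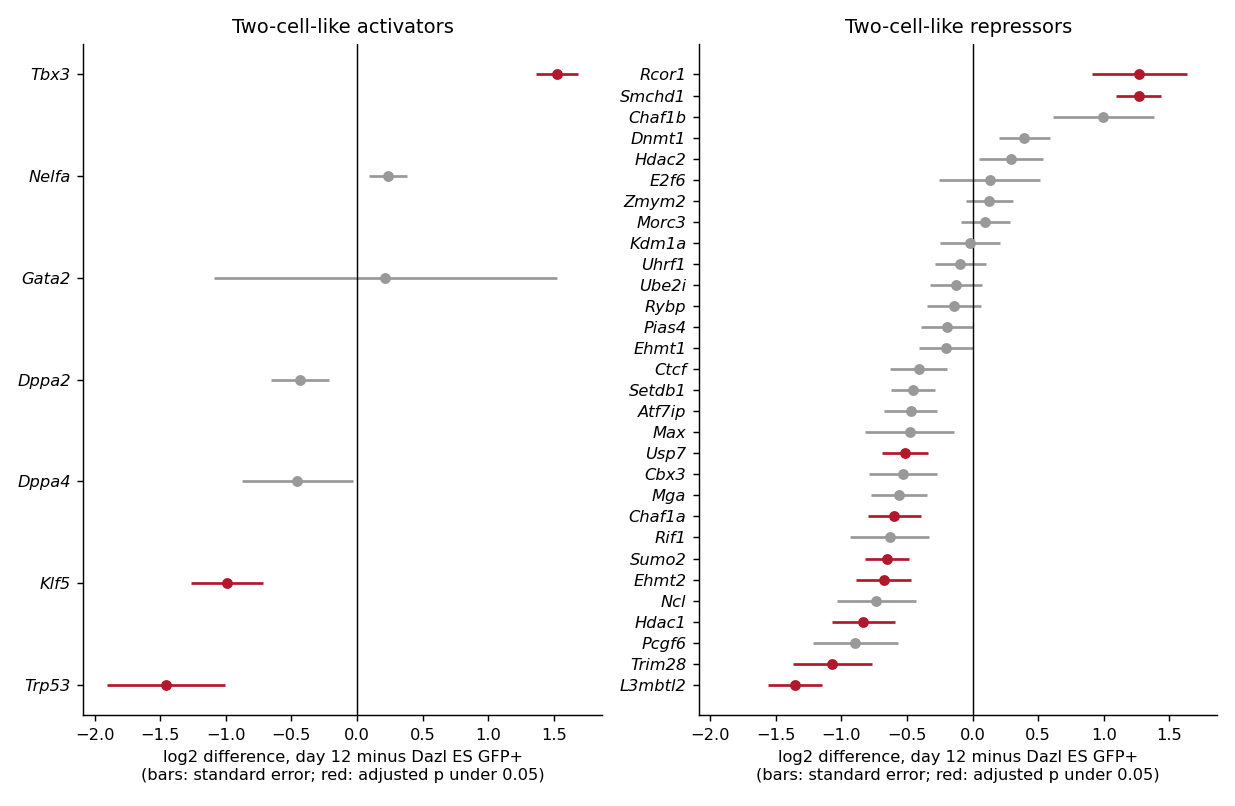
Log2 difference of day 12 minus Dazl-GFP-positive ES cells for 7 activators and 30 repressors of the 2-cell-like state; points are limma estimates, bars 1 standard error, and red marks an adjusted p under 0.05. Tbx3 lies at 1.52 among the activators, and the repressors run from 1.27 for Rcor1 to -1.35 for L3mbtl2.

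Telomere genes were looked at because Zscan4c and the Tcstv genes are known for acting on telomeres. Of 12, 1 was called higher and 2 lower at day 12, where 27.3% of all genes were called. Pot1a, a telomere end-binding protein, was 0.78 ± 0.25 higher (limma, adjusted p = 0.0384). Daxx and Rtel1 differed by -1.02 and -1.43 (limma, adjusted p = 0.00172 and 0.00475). None of the 12 was called between day 16 and day 12 in limma, or at an unadjusted p under 0.05. Among all 18876 genes, 189 were called and 1462 had an unadjusted p under 0.05 in limma. Oocyte genes, which share some transcripts with the early embryo, had 1 of 11 called higher and 1 lower at day 12 in limma. Of all genes 13.1% were called higher and 14.2% lower. By day 16 none of the 11 was called in limma. The called oocyte genes are not named here.

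Few genes on the array had a profile like that of the 6. Over the 18 arrays, each member correlated with the mean of the 6 scaled profiles at 0.948 to 0.987. That mean includes the member itself, so these values are not comparable with those of other genes. Of 15440 other named genes 10 reached 0.9 and 3 reached 0.95. The closest were Pramel39, a PRAME-like gene on chromosome 5 like Pramel37, at 0.979, Gm428 at 0.972 and Gm11487 at 0.958, both on chromosome 4. Next came Lgals4, which encodes galectin-4, at 0.938, A430060F13Rik at 0.933 and the long non-coding A530040E14Rik at 0.930. Gm428 read 2.88 and 2.89 at day 12 and -1.10 and -0.82 at day 16. Pramel39 read 0.50 and 0.20 at day 12 and -2.71 and -3.04 at day 16. These correlations describe the arrays and carry no test.

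Among the 6 genes the 15 pairwise correlations ran from 0.863 to 0.973 over 18 arrays, with a median of 0.955. Without the day 12 and day 16 arrays they ran from 0.296 to 0.829 over the remaining 14, with a median of 0.591, and many of those readings were not well above background. Zscan4c and Usp17la had the highest of them, at 0.829, and Zscan4c and Tcstv3 the lowest, at 0.296. The points share scaling and slides and are given as a description.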

How the data were processed

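Spot signals are in the unit intensity, as deposited, and were extracted with Agilent Feature Extraction 9.1.3.1 under 2 protocols, per the file headers, which give background-subtracted, detrended signals not scaled between arrays. The authors also deposited a table of group means over the array median, here an alternative. Levels are on the log2 scale, computed here from the deposited intensity, minus each array's 75th percentile. Of 43379 non-control spots on 41174 probes, 172 probes with outlier flags were left out, and none was saturated. Accessions named 22951 probes, symbols 6659 and synonyms 3096 through RefSeq GRCm38.p6, and 8468 kept the file's name. The genome build behind the array design is not given in the sources used here. Probes had to be well above background on both arrays of at least 1 group, and the one with the highest mean level stood for its gene.

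One limma model (version 3.58.1, R version 4.3.3) held all 9 groups and gave two-sided moderated tests with 9 residual and 2.39 prior degrees of freedom. Genes were called where the p adjusted over 18876 genes after Benjamini and Hochberg was under 0.05. The fit was also run on data simulated for the Dazl sort, with independent noise and no slide effects. Since the real arrays differ from that setting, no conclusion is drawn from it. Python 3.11.15, pandas 2.3.3 and matplotlib 3.10.9 drew the figures and searched promoters from 250 bases before to 50 after the start. With 2 arrays a group, the number of arrays limits the precision. Where 1 group was not well above background, "at least N-fold" sets the bright group's mean against the mean over the dim group's arrays of the gene's level or, if higher, the lowest level well above background on that array.

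The members and gene lists were chosen with earlier results of these data known. The text names every member, of each list up to 4 called genes per direction and comparison with the smallest p, and the 6 other genes most like the members over the arrays, and says where a gene falls outside this. Arrays lay on 6 slides scanned on 4 days. The labels do not pair replicate numbers between groups. Alternatives were quantile normalization, normexp (offset 50), no filter or a stricter filter on dim probes, the mean over a gene's probes, floored low signals, slide or replicate number as a block, the authors' means, and leaving out each library.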

Additional observations from a re-analysis of the deposited data

Results flagged for a closer look

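For Zscan4c and Usp17la the difference between the sorted ES fractions had opposite signs in the 2 lines with the main scaling. The share of all genes with such signs was not counted, so nothing is read from their number. For Zscan4c the Stella sort minus the Dazl sort was -3.86 on the log2 scale. Both Stella slides had less in the GFP-positive ES cells and both Dazl slides had more, and the test of the difference itself gave an adjusted p of 0.0957 in limma. For Usp17la it was -2.13, with an adjusted p of 0.283. Neither passed the threshold of 0.05. Usp17la was well above background on 1 of the 4 Dazl arrays and Zscan4c on 3. With normexp the difference was -0.95 for Zscan4c and -0.30 for Usp17la, and Usp17la then had the same sign in both lines, at 0.21 in the Stella and 0.51 in the Dazl sort.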

How the results depend on the processing

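The day 12 and day 16 directions of the 6 genes held under every alternative run. With quantile normalization the contrast of the sorts had 18 genes called in place of 6, the day 16 minus day 12 median over the 6 genes was -3.86, and 1 member was called in E13.5 cells. With normexp the genes called were 9 for the Stella sort, 75 for the Dazl sort, 0 in their contrast (193 at an unadjusted p under 0.05 in limma), 828 at day 7, 1458 at day 12 and 6970 between day 16 and day 12. Under it the medians over the 6 genes were 2.89 at day 12 and -2.27 for day 16, and 6 members were called lower in E13.5 cells and 0 in juvenile testis cells. Normexp shifted the median of all genes to 0.16, 0.19, -0.41, -0.31, 0.25, -0.49 and -0.30 in the Stella sort, Dazl sort, day 7, day 12, day 16, E13.5 and juvenile comparisons. Without a filter on dim probes 55 genes were called in the Stella sort and 13958 in E13.5 cells, and 0 members in juvenile testis cells. With probes well above background on every array compared, the genes called were 53 in the Stella sort, 2 in the contrast and 102 for day 16, the day 12 median was 5.58, and 0 members were called in E13.5 and in juvenile testis cells, where dim members drop out. With low signals floored, 2 members were called in the Stella sort, 2 in the contrast and 1 at day 7, the contrast had 40 genes, and the day 12 median was 5.58. The share of calls that were higher moved by over 10 points from 51.5% to 32% in the Dazl sort, 60.8% to 76.8% for day 16 and 52.3% to 31.2% for E13.5 with normexp, from 37% to 48.5% at day 7 and 16.7% to 50% in the contrast with quantile normalization, and from 47.9% to 37% at day 12 with low signals floored. With slide as a block the genes called were 19 in the Stella sort, 182 in the Dazl sort, 1 in the contrast and 2886 at day 12. With replicate number as a block, 1 member, Zscan4c, was called in the Stella sort, the Dazl sort, their contrast and day 7 (limma, adjusted p = 0.0334, 0.0326, 0.0443 and 0.0219), and the number of genes called was 77, 529, 6 and 4014. Deviations of same-numbered arrays correlated at 0.558 for the Stella sort and at 0.410 for the Dazl sort, where they shared slides, and at -0.03 for day 7. Single members reversed direction with quantile normalization (Tcstv1 in juvenile testis cells, -0.062), with normexp (Tcstv1, Tcstv3 and Usp17la in the Stella sort, 0.13, 0.22 and 0.21; Tcstv1 and Tcstv3 in the Dazl sort, 0.39 and 0.32; Tcstv3 at day 7, -0.65; Tcstv1 in juvenile testis cells, -0.58) and with low signals floored (Tcstv1 in the Dazl sort, 0.27). Leaving out 1 library at a time gave -1.30 to 0.14 for Tcstv1 in the contrast, -0.39 to 0.51 for Tcstv3 at day 7, and -0.49 to 0.60 for Tcstv1 and -0.88 to 0.24 for Zscan4c in juvenile testis cells. It gave 23 to 67 genes called for the Stella sort, 38 to 69 for the Dazl sort, 1 to 19 for the contrast with 0 to 1 member, 1439 to 2733 at day 7 with 0 to 1 member, and 2556 to 2789 at day 12 with a median of 5.72 to 5.95. It gave 59 to 82 genes for day 16 with a median of -3.78 to -3.62, 6188 to 9205 in E13.5 cells with 2 to 4 members, and 5960 to 7611 in juvenile testis cells with 0 to 1 member. Without the library labelled E13.5 replicate 1 in the whole fit, the counts were 257 for the Stella sort, 1376 for the Dazl sort, 76 for the contrast, where 1 member was called, 5694 at day 7, 6925 at day 12 and 374 for day 16. The cause of these changes was not tested. Signals near background limit the comparisons outside the day 12 and day 16 cultures.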
